A study of Mus musculus with 8 samples.

Results

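The contactins and the Cadm proteins are 2 families of immunoglobulin-type adhesion molecules on nerve cells. All 10 of their mouse genes listed here, the 6 contactin genes Cntn1 to Cntn6 and the 4 Cadm genes Cadm1 to Cadm4, were followed in embryos lacking Prdm12, out of 38355 genes in each file. The genes were chosen by symbol as whole families, with no level or fold change as a criterion. However, the families were proposed with earlier results of the same KO against WT comparison known, so their fold changes and adjusted p-values are given as a description and not as independent evidence. All 10 passed the filter on low counts, which left 16068 genes.

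Total RNA of thoracic dorsal root ganglia, dissected together with the spinal cord beside them at embryonic day E11.5, was sequenced. The KO group held 4 libraries from C57Bl6 embryos of genotype Prdm12-/-, and the WT group held 4 libraries from wild-type C57Bl6 embryos of the same age. Prdm12 encodes a zinc-finger transcription factor of the sensory lineage, and the comparison addresses which genes depend on it in somatosensory neurons. The labels do not give the deleted part of Prdm12, nor whether a library came from 1 embryo or a pool, so p-values measure only the spread between these libraries, which may be technical.

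Contactins are held in the outer face of the axon membrane by a lipid anchor and bind partners such as L1-type adhesion proteins, contactin-associated proteins and receptor phosphatases. Cntn2, also called TAG-1 or axonin, is known as a marker of young axons, among them those of commissural neurons, motor neurons and sensory ganglion neurons. Cadm proteins span the membrane, bind each other across cell contacts, and carry a short cytoplasmic tail that binds scaffold proteins. Cadm1 is known for organizing synapses, and axonal Cadm3 binds Cadm4 on Schwann cells in peripheral nerve.

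Library totals lay between 23088908 and 27567399 counts in KO and between 25490087 and 67782435 in WT, and the largest, WT replicate 1, was 2.56 times the median of the other 7. Prdm12 stood at 0.961 to 1.55 CPM (counts scaled to library size) in KO and at 22.2 to 39.5 CPM in WT, so it was low in every library labelled KO. The defining markers of the labelled tissue were present, with all 16 sensory neuron markers and all 12 pan-neuronal markers passing the filter. WT replicate 1 stood apart from the other WT libraries, with summed sensory neuron markers at 555 CPM against 726 to 768 CPM and summed pan-neuronal markers at 5297 CPM against 6018 to 6239 CPM. Values without it are given beside the results of the members that it moves most.

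The transcription start regions of the abundant members are shown where an entry was found. Of the 2 abundant genes that fell, Cadm1 had none, so the regions cannot set genes that fell against relatives that did not pass. RefSeq start regions (250 bases before the start to 50 after it, build GRCm38.p6, which has the coordinates of mm10) were found for 9 of the 10 genes. Those of Cntn2, Cadm3 and Cadm4 are printed from 5′ to 3′ on the strand of the gene, with matches to the E-box letters CANNTG, a form that basic helix-loop-helix factors bind, in capitals. The Cntn2 region is chr1:132542891-132543190 on the minus strand, the Cadm3 region chr1:173367646-173367945 on the minus strand, and the Cadm4 region chr7:24481773-24482072 on the plus strand. Read on the minus strand, the annotated span of Cntn2 begins at 132543256, upstream of its region. The Cntn2 region thus belongs to a start inside the annotated gene.
Cntn2: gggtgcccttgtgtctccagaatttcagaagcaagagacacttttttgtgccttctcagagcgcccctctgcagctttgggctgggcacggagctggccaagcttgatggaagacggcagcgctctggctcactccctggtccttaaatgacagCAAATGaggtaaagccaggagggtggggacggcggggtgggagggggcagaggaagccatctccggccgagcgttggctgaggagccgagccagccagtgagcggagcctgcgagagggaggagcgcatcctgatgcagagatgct
Cadm3: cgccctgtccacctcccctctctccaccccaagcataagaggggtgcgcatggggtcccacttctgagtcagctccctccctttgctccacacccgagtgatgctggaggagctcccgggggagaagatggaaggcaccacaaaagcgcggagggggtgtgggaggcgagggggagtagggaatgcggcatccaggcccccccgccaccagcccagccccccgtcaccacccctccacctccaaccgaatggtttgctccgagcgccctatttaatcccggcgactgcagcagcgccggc
Cadm4: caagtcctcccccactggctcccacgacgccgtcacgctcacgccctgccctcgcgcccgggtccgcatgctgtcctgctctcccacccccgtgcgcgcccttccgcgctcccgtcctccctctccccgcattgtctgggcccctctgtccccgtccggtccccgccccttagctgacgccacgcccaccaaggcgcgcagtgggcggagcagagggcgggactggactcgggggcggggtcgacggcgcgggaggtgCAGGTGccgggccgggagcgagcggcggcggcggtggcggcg

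Both strands were searched for the E-box letters and for TAAT, a core that homeodomain factors bind. The Cntn2 region held 1 E-box match and no homeodomain core, and the Cadm4 region likewise held 1 and 0. The Cadm3 region held no E-box match and 1 homeodomain core. Of 32851 start regions of the same length, 72.3% held the E-box letters and 58.0% the homeodomain core, so a match of either kind was present in most regions. The regions differed more in base composition, with 61.3% G and C in Cntn2, 66.7% in Cadm3 and 77.0% in Cadm4, against a mean of 53.8% over all regions. The number of CG pairs was 13, 17 and 40 in the same order. No entry was given for Cadm1.

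**Figure D1:**
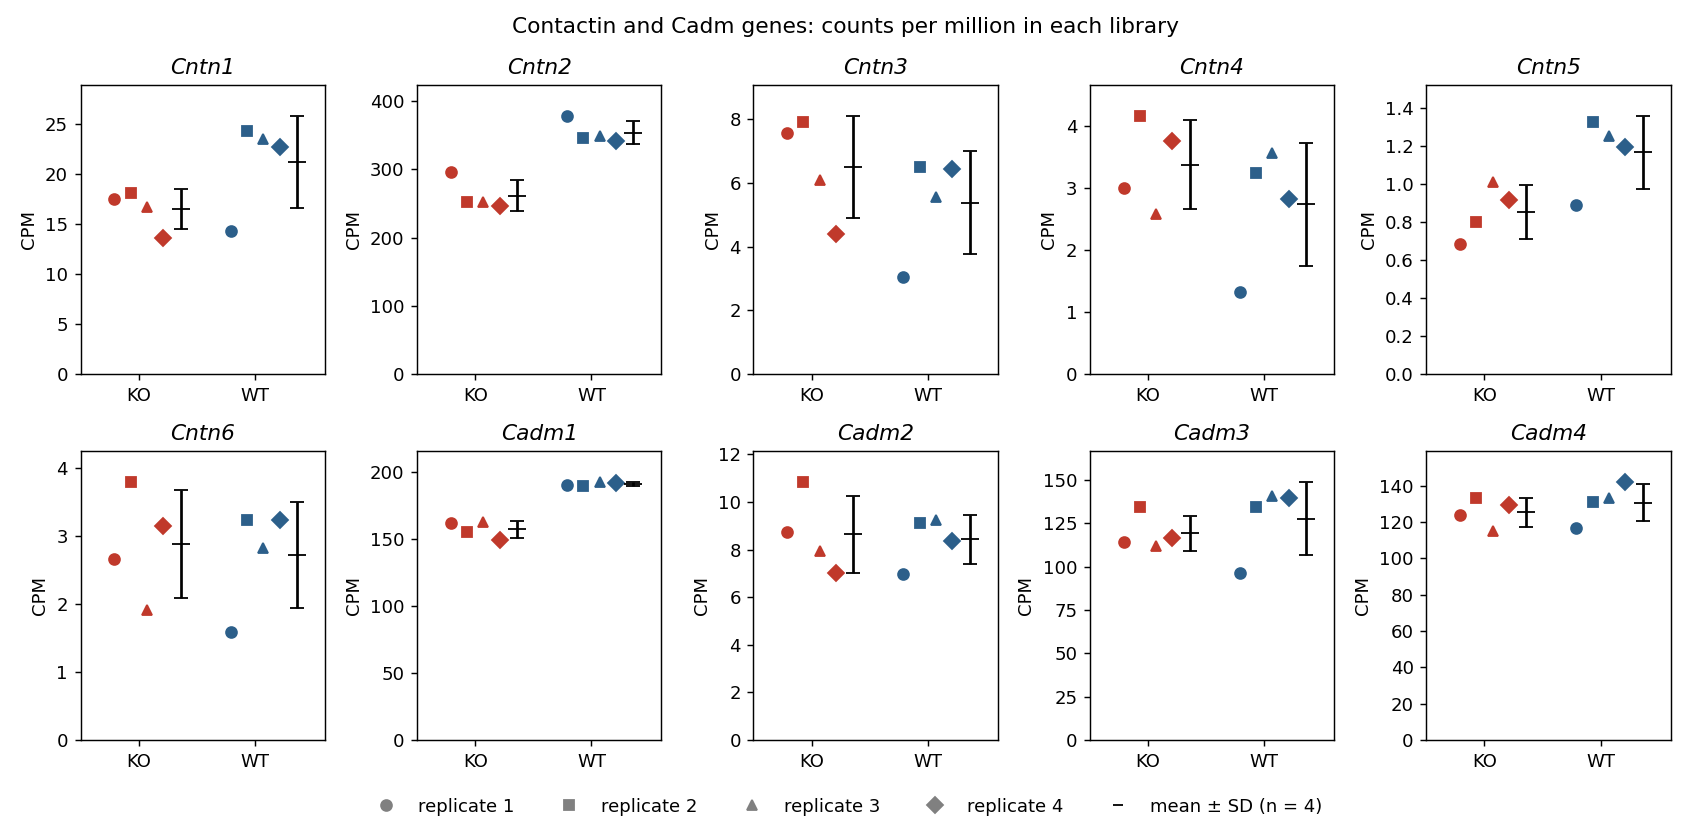
CPM of each of the 10 genes in every library, with KO left of WT, 1 marker shape per replicate number, and black bars for the mean ± SD (n = 4). For Cntn2 and Cadm1 the 4 KO points lie below the 4 WT points, and for the other 8 genes the groups overlap.

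Between the groups, 2 of the 10 members fell in KO, Cntn2 and Cadm1, none rose, and 8 did not pass. Over all tested genes 0.243% fell and 0.056% rose in edgeR's quasi-likelihood test with Benjamini-Hochberg adjustment at 0.05, and nothing is read from the difference, since the results of this contrast were known when the families were proposed. The median log2 fold change of KO over WT was −0.08 over the 10 members and −0.0032 over all tested genes. Without 1 library the members' median ranged from −0.16 (without WT replicate 1) to −0.033 (without WT replicate 4). At an unadjusted p under 0.05 edgeR found 2 members lower and 0 higher, DESeq2 3 and 0, and limma-voom 6 and 0. Over all 16068 tested genes this cut gave 533 lower and 487 higher in edgeR, 487 and 431 in DESeq2, and 885 and 582 in limma-voom. Each tool called the same 2 genes after adjustment. In these bulk samples, fewer cells of a type and less RNA per cell cannot be told apart.

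Cntn2 (ENSMUSG00000053024, mm10 chromosome 1, 132509427 to 132543256, minus strand) stood at 296, 252, 252 and 246 CPM in KO replicates 1 to 4, against 378, 346, 349 and 341 CPM in WT replicates 1 to 4. The groups did not overlap, and a gap of 45.7 CPM separated the highest KO library from the lowest WT library. KO replicate 1 was the highest of its group and WT replicate 1 the highest of all. The means were 261 ± 22.98 CPM in KO and 354 ± 16.6 CPM in WT (SD, n = 4 each), a level 26.1% lower in KO, with a log2 fold change of −0.44 (SE 0.06, adjusted p = 0.0133). CPM of all 4 KO libraries lay below all 4 WT libraries in 2.46% of tested genes and above them in 1.69%.

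Cadm1 (ENSMUSG00000032076, chromosome 9, 47530173 to 47857637, plus strand) stood at 162, 155, 163 and 149 CPM in KO replicates 1 to 4, against 190.2, 189.5, 193 and 192 CPM in WT replicates 1 to 4. Again the groups did not overlap, with a gap of 26.9 CPM between them, and the 4 WT libraries lay close together. The means were 157 ± 6.19 CPM in KO and 191 ± 1.55 CPM in WT (SD, n = 4 each), a level 17.7% lower in KO, with a log2 fold change of −0.28 (SE 0.04, adjusted p = 0.0100). Both genes were among the 23 smallest p-values of the whole table, Cadm1 at rank 22 and Cntn2 at rank 23.

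The 2 calls lay near the threshold when the data were reduced. With 1 library left out, the log2 fold change of Cntn2 stayed between −0.50 and −0.40 and that of Cadm1 between −0.30 and −0.26, but Cntn2 kept its call in 3 of 8 such fits and Cadm1 in 4 of 8. Cntn2 lost it without KO replicate 2, 3 or 4 or WT replicate 3 or 4 (adjusted p from 0.0511 to 0.0751), and Cadm1 without KO replicate 2 or 3 or WT replicate 3 or 4 (adjusted p from 0.0508 to 0.0639). Without WT replicate 1, both kept it (adjusted p = 0.00846 for Cntn2 and 0.00819 for Cadm1).

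Markers of muscle and mesenchyme did not pass the test, but most had higher values in KO. Of 12 muscle markers, 0 passed the test, 11 had a higher value in KO and their summed level was 792 to 1138 CPM in KO and 706 to 843 CPM in WT. All 18 mesenchyme and sclerotome markers had higher values in KO, 0 passed, and their sum was 5325 to 6063 CPM in KO and 4411 to 5610 CPM in WT. The mean log2 CPM of these 2 lists did not overlap between groups, at 6.22 to 6.47 in KO and 6.07 to 6.21 in WT, so in a fit with this score as a covariate the score and the genotype can hardly be told apart. In that fit the log2 fold change of Cntn2 was −0.27 (adjusted p = 1.0) and that of Cadm1 −0.22 (adjusted p = 0.957), and 1 gene of the whole table passed.

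Of 16 sensory neuron markers, 4 fell, among them Pou4f1, Tlx2 and Eya2, which encode transcriptional regulators of sensory neurons, and their summed level was 518 to 615 CPM in KO and 555 to 768 CPM in WT. Of 13 commissural and dorsal interneuron markers 2 fell, Pou4f1 and Foxd3. Pou4f1 is also in the sensory neuron list, and Foxd3 in the neural crest and glia list. The sum of the 13 was 589 to 732 CPM in KO and 691 to 788 CPM in WT. Of 10 motor neuron markers with an identifier 1 rose, Lhx3, and the sum was 323 to 334 CPM in KO and 314 to 352 CPM in WT. The 12 pan-neuronal markers had lower values in KO without any passing, with sums of 5073 to 5650 CPM in KO and 5297 to 6239 CPM in WT. No marker of these lists was at 0 in all libraries. With the mean log2 CPM of the pan-neuronal markers as a covariate, the log2 fold change was −0.47 for Cntn2 (adjusted p = 0.00435) and −0.27 for Cadm1 (adjusted p = 0.00603), so both kept the call. This score was 8.17 to 8.38 in KO and 8.45 to 8.49 in WT, except for 8.205 in WT replicate 1. The groups overlapped through that library alone. Score and genotype are thus told apart largely through WT replicate 1, and nothing is read from the kept calls. In that fit 340 genes of the whole table were called lower and 478 higher, against 39 and 9 without this covariate. Of 12 neural progenitor markers 11 had lower values in KO and 0 passed. Their sum was 2865 to 3023 CPM in KO and 3061 to 3347 CPM in WT, without overlap. Most of this sum came from Vim (means of 1481 CPM in KO and 1585 CPM in WT) and Nes (821 and 885 CPM). The mean log2 CPM of the list overlapped, at 6.06 to 6.28 in KO and 6.175 to 6.43 in WT. Of 12 neural crest and glia markers 1 fell, Foxd3, with a sum of 1104 to 1264 CPM in KO and 1102 to 1314 CPM in WT. None of the 10 endothelial, 10 erythroid and 10 macrophage markers passed. The part of the sensory, dorsal interneuron and progenitor markers in the 2 falls was not tested.

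Among the other contactins, Cntn1, which joins contactin-associated protein at the contacts of axons with myelinating glia, came closest to the threshold. It stood at 17.5, 18.2, 16.8 and 13.6 CPM in KO replicates 1 to 4, against 14.35, 24.3, 23.5 and 22.7 CPM in WT replicates 1 to 4. The groups overlapped through WT replicate 1 alone, which lay below 3 of the KO libraries. KO differed from WT by −0.35 on the log2 scale (SE 0.16, adjusted p = 0.806), and without WT replicate 1 it was −0.50 (SE 0.09, adjusted p = 0.0209), so that 3 members were then called lower.

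Cntn3, Cntn4 and Cntn6 lie on chromosome 6 within 4.54 Mb of each other, and all 3 had positive log2 fold changes that did not pass. Cntn3 had 7.58, 7.92, 6.11 and 4.41 CPM in KO replicates 1 to 4, against 3.04, 6.49, 5.56 and 6.44 CPM in WT replicates 1 to 4 (log2 fold change 0.30, SE 0.26, adjusted p = 0.927). Cntn4, which guides olfactory axons, had 3.00, 4.16, 2.59 and 3.76 CPM in KO replicates 1 to 4, against 1.32, 3.24, 3.56 and 2.82 CPM in WT replicates 1 to 4 (log2 fold change 0.34, SE 0.29, adjusted p = 0.925). Cntn6, known from cerebellar neurons, had 2.67, 3.80, 1.91 and 3.15 CPM in KO replicates 1 to 4, against 1.59, 3.24, 2.82 and 3.24 CPM in WT replicates 1 to 4 (log2 fold change 0.11, SE 0.26, adjusted p = 0.976).

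In each of these 3 genes WT replicate 1 was the lowest of all 8 libraries, and the groups overlapped. Without it the log2 fold changes were 0.09 for Cntn3, 0.08 for Cntn4 and −0.10 for Cntn6. With the pan-neuronal score as a covariate, Cntn3 and Cntn4 were called higher (log2 fold changes 0.85 and 0.92, adjusted p = 0.00864 and 0.0347). That fit called 340 genes lower and 478 higher over the whole table, against 39 and 9 without the score. The score overlapped between groups through WT replicate 1 alone, so nothing is read from the calls of Cntn3 and Cntn4. Cntn5, the least abundant member, rested on 19 to 60 counts per library. It had 0.686 to 1.01 CPM in KO and 0.891 to 1.33 CPM in WT (log2 fold change −0.42, SE 0.20, adjusted p = 0.811).

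The other Cadm genes did not pass. Cadm3, an axonal adhesion molecule, stood at 114, 134, 112 and 117 CPM in KO replicates 1 to 4, against 96.3, 134, 141 and 139.6 CPM in WT replicates 1 to 4. WT replicate 1 was the lowest of all 8 and the groups overlapped (log2 fold change −0.10, SE 0.12, adjusted p = 0.957). Without WT replicate 1 the log2 fold change of Cadm3 was −0.21 (SE 0.06, adjusted p = 0.241), and KO replicate 2 alone still reached the WT values. Cadm4, its glial binding partner, stood at 124, 133, 115 and 129 CPM in KO replicates 1 to 4, against 117, 131, 133 and 142 CPM in WT replicates 1 to 4 (log2 fold change −0.06, SE 0.06, adjusted p = 0.944), and without WT replicate 1 its log2 fold change was −0.10 (SE 0.05, adjusted p = 0.770). Cadm2, a neuronal member of the family, had 7.03 to 10.8 CPM in KO and 6.99 to 9.24 CPM in WT (log2 fold change 0.04, SE 0.14, adjusted p = 0.982), and without WT replicate 1 the value turned to −0.036. The annotated exons of Cadm3 overlap those of Ackr1 on the same strand, which held 2430 counts in all 8 libraries against 29877 for Cadm3.

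**Figure D2:**
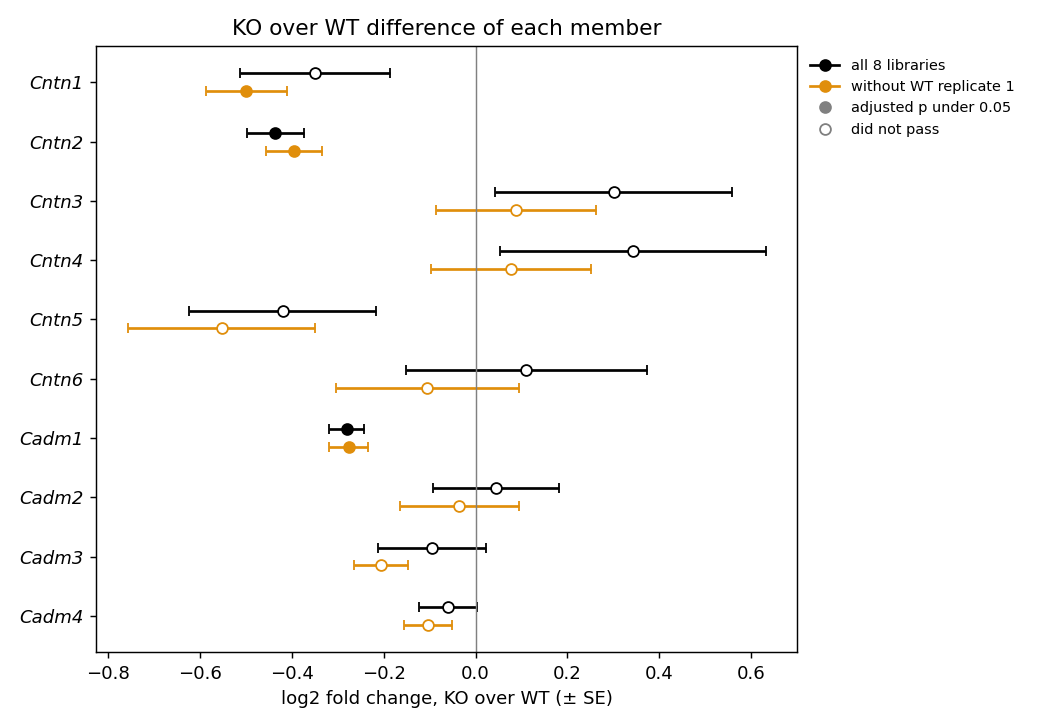
Log2 fold change of KO over WT (points, ± SE) of the 10 genes with all 8 libraries in black and without WT replicate 1 in orange; filled points passed at an adjusted p under 0.05. Cntn2 and Cadm1 passed in both, and Cntn1 passed at −0.50 when WT replicate 1 was left out.

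Some libraries stood low or high in most members at once. WT replicate 1 was the lowest of the WT group in 8 of 10 members and the highest in 1, Cntn2, while its Cadm1 value lay within 3 CPM of the other WT libraries. In KO, replicate 2 was the highest of its group in 7 of 10 members. The 2 called genes were the members in which WT replicate 1 was not the lowest of its group. On the log2 scale WT replicate 1 lay 0.91 below the 8-library mean in Cntn3 and 1.14 below it in Cntn4, and 0.32 above it in Cntn2.

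**Figure D3:**
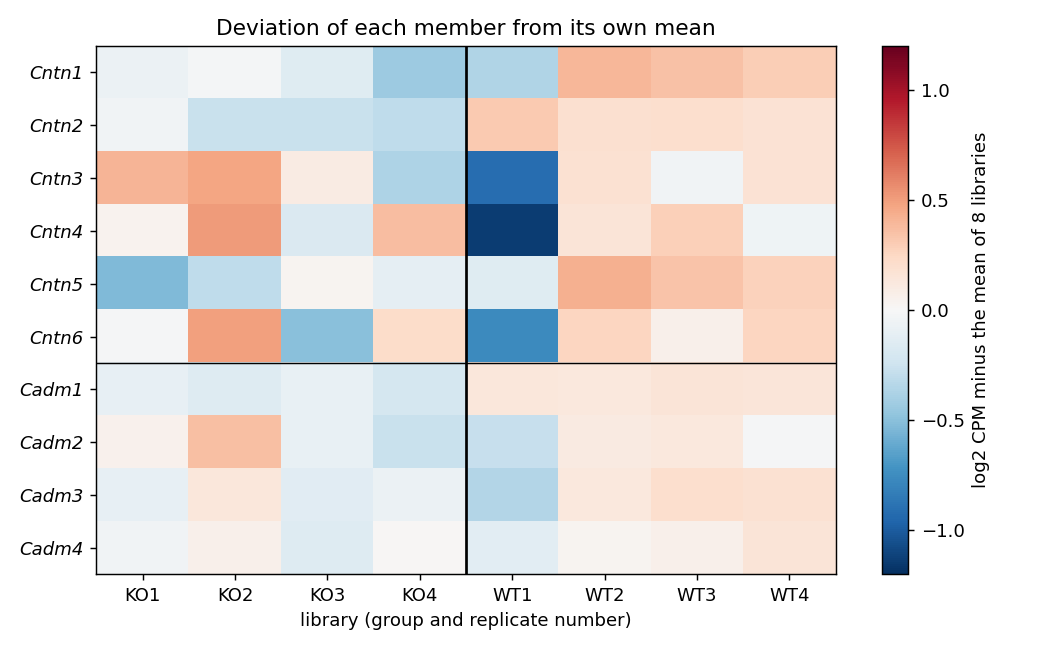
Log2 CPM of each gene minus its mean over the 8 libraries, with KO libraries left of the black line and WT libraries right of it. WT replicate 1 is blue in Cntn3 (−0.91), Cntn4 (−1.14) and Cntn6 (−0.77) and red in Cntn2 (0.32), and all 4 KO libraries lie below 0 in Cntn2 and Cadm1.

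Per kb of merged exon, a scale on which genes can be compared, the 10 genes spanned more than 2 orders of magnitude. Cadm4 was the highest, with 58.0 ± 3.62 CPM per kb in KO and 60.5 ± 4.82 in WT (SD, n = 4 each), above 95.7% of tested protein-coding genes in KO and 95.9% in WT. Cntn2 followed with 28.1 ± 2.47 CPM per kb in KO and 38.0 ± 1.78 in WT, above 87.1% of such genes in KO and 91.6% in WT. Cadm3 had a level of 16.5 ± 1.404 CPM per kb in KO and 17.6 ± 2.92 in WT, and Cadm1 of 15.1 ± 0.593 in KO and 18.3 ± 0.148 in WT. Cntn1 had 1.75 ± 0.213 CPM per kb in KO and 2.25 ± 0.490 in WT, and Cntn5, the lowest, 0.188 ± 0.0312 in KO and 0.258 ± 0.0423 in WT.

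Of the 9 pairs of neighbours in this order, 5 were separated in every library, which set Cadm4 above Cntn2, Cntn2 above Cadm3, Cadm1 above Cntn1, Cntn1 above Cntn3, and Cadm2 above Cntn6. Cadm3 exceeded Cadm1 in 6 of 8 libraries and Cntn3 exceeded Cadm2 in 5 of 8, while Cntn6 exceeded Cntn4, and Cntn4 exceeded Cntn5, in 7 of 8. Cadm3 and Cadm1, and Cntn3 and Cadm2, did not differ beyond their spread. Cntn4 lay below Cntn5 in WT replicate 1 alone, and in KO it had 0.305 to 0.490 CPM per kb against 0.151 to 0.223 for Cntn5. Without WT replicate 1, 6 pairs were separated in every library, and Cntn6 lay below Cntn4 in KO replicate 3 alone. With the longest transcript as length Cadm1 exceeded Cadm3 in 8 of 8 libraries, since the merged exons of Cadm1 measure 10440 bases and its longest transcript 4767.

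**Figure D4:**
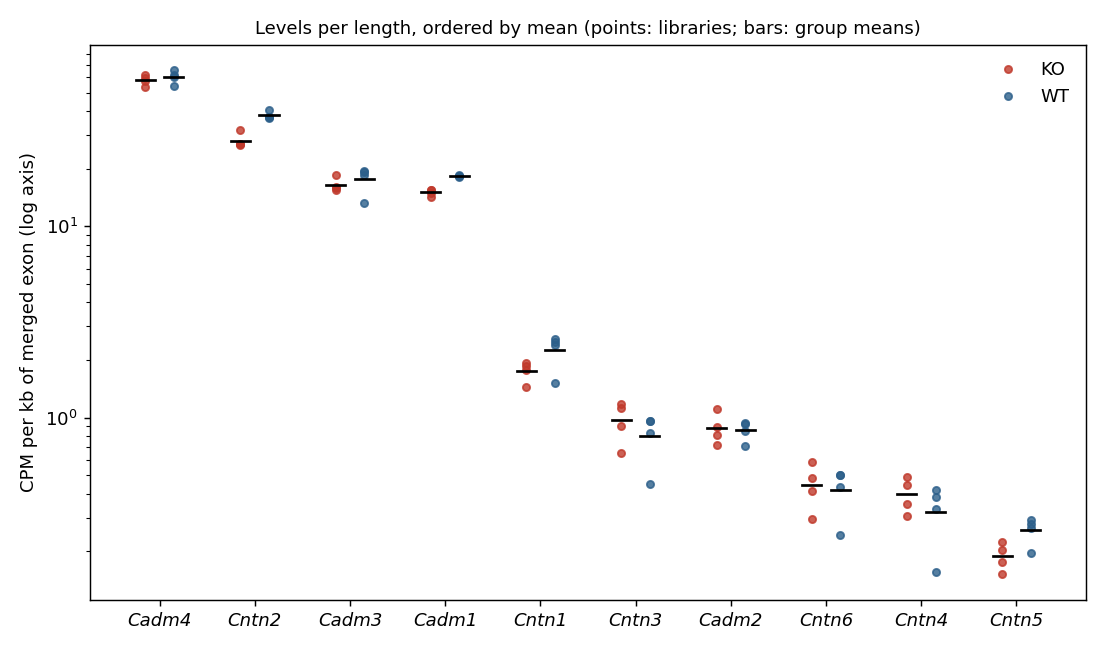
CPM per kb of merged exon on a log axis, in the order of the mean over 8 libraries; points are libraries, with KO left of WT, and bars are group means. Cadm4, Cntn2, Cadm3 and Cadm1 lie above 13 CPM per kb in every library and the other 6 genes below 3.

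Within its family Cntn2 made up 88.2 ± 1.4% of the summed contactin level per kb in KO and 90.3 ± 2.49% in WT (SD, n = 4 each), and Cntn1 5.504 ± 0.568% in KO and 5.37 ± 1.24% in WT. Summed over the 6 contactins, the level was 29.7 to 35.7 CPM per kb in KO and 41.2 to 43.2 in WT, without overlap, which follows from the weight of Cntn2. Cadm4 made up 64.1 ± 1.30% of the Cadm sum in KO and 62.2 ± 0.811% in WT. The summed Cadm level overlapped between groups, at 85.0 to 96.1 CPM per kb in KO and 86.3 to 104 in WT. The overlap came from WT replicate 1 alone, since WT replicates 2 to 4 had 98.2, 100.4 and 104 CPM per kb, above every KO library.

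Ratios of counts within a library do not depend on how libraries are scaled. The ratio of Cadm1 to Cadm4 counts was 1.30, 1.17, 1.41 and 1.16 in KO replicates 1 to 4, against 1.63, 1.45, 1.45 and 1.35 in WT replicates 1 to 4, and KO replicate 3 lay above WT replicate 4. The ratio of Cadm1 to Cadm3 counts was 1.16 to 1.45 in KO and 1.37 to 1.97 in WT, with WT replicate 1 the highest. The ratio of Cntn2 to Cntn1 counts was 13.9 to 18.1 in KO and 14.2 to 15 in WT replicates 2 to 4, with 26.3 in WT replicate 1. The ratio thus lay between 13.9 and 18.1 in 7 of the 8 libraries.

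The genes whose library-to-library pattern was most like that of Cntn2 were Rab39, Pdzrn4 and the claudin gene Cldn12. Likeness was measured over the 8 libraries as the root mean square difference of log2 CPM after centring each gene, over 14282 other genes with a mean of at least 1 CPM, and it was 0.0842, 0.0924 and 0.0945 log2 units. Pdzrn4 and Cldn12 were called lower (log2 fold changes −0.47 and −0.36, adjusted p = 0.00987 and 0.00462), and Rab39 did not pass (−0.33, adjusted p = 0.645). These genes were picked for their pattern over the same KO and WT libraries. A fold change near that of Cntn2 therefore follows from the choice. The genes most like Cadm1 were Grm4, which encodes a metabotropic glutamate receptor, Pdlim1 and Fam171b, at 0.0432, 0.0471 and 0.0490 log2 units. Their log2 fold changes were −0.32, −0.23 and −0.26, and none of the 3 passed (adjusted p = 0.248, 0.390 and 0.0954). Values near that of Cadm1 likewise follow from the choice.

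Known binding partners of the 2 families held no called gene in edgeR. Of 24 contactin partners 23 were tested, 0 passed, and the median log2 fold change was −0.04. Over all tested genes 0.299% were called in either direction, so 0 of 23 is near that share and is not read as a result. At an unadjusted p under 0.05 edgeR found 1 lower and 1 higher, DESeq2 found 3 lower and called 0, and limma-voom found 5 lower and 1 higher and called 1, Nrp1. Over all 16068 tested genes this cut gave 533 lower and 487 higher in edgeR, 487 and 431 in DESeq2, and 885 and 582 in limma-voom. The partners with the smallest p were Nrp1, a semaphorin receptor subunit, Cntnap3 and Notch1. Nrp1 stood at 128 ± 9.01 CPM in KO and 153 ± 21.3 CPM in WT (log2 fold change −0.25, adjusted p = 0.706). Cntnap3 stood at only 0.520 ± 0.145 CPM in KO and 0.279 ± 0.13 CPM in WT (0.79, adjusted p = 0.775). The log2 fold change of Notch1 was −0.18 (adjusted p = 0.793). Without WT replicate 1 Nrp1 was called lower (log2 fold change −0.34, adjusted p = 0.00936). The L1-type genes L1cam, Nrcam, Nfasc and Chl1, whose products bind contactins, had log2 fold changes of −0.02, −0.06, −0.06 and −0.11.

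Of 20 Cadm partners 19 were tested, 0 passed, and the median log2 fold change was −0.03. With 0.299% of all tested genes called in either direction, 0 of 19 is again near that share and is not read as a result. At an unadjusted p under 0.05 edgeR and DESeq2 each found 3 lower and 0 higher, and limma-voom found 3 lower and 2 higher, with 0 called by any of them. The counts over all 16068 tested genes at this cut were 533 lower and 487 higher in edgeR, 487 and 431 in DESeq2, and 885 and 582 in limma-voom. The nectin genes Nectin1 and Nectin4, which encode adhesion molecules related to the Cadm proteins, had log2 fold changes of −0.18 and −0.52 (adjusted p = 0.600 and 0.623), and Lin7c, a scaffold gene, of −0.13 (adjusted p = 0.731). Nectin1 was called lower without WT replicate 1 (−0.24, adjusted p = 0.0272). Epb41l3 and Cask, whose products bind the Cadm tail, had log2 fold changes of −0.02 and −0.05.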

How the data were processed

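RNA came from microdissected tissue by a column kit and went into Illumina libraries, per the labels' protocols. The authors deposited raw whole-number read counts for each Ensembl gene and library. The submitters' processing notes name STAR 2.3.0e and featureCounts 1.4.6-p1, beside FastQC 0.10.1, SAMtools 0.1.18 and DESeq2 1.8.2, and the build mm10. For the annotation release, the strand setting and shared reads, settings were not given in the sources used here. The 5 summary rows of each file held 0 counts and were left out. Symbols, coordinates and exon lengths came from GENCODE M21 (GRCm38), in which 36602 of 38355 identifiers matched, and the other 1753 held 0.263% of counts.

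The test of KO against WT was edgeR's (version 4.0.16, R 4.3.3; filterByExpr, TMM, robust quasi-likelihood F test, group alone, Benjamini-Hochberg adjustment over 16068 genes, threshold 0.05). SE is the size of the log2 fold change over the square root of F. CPM uses TMM-adjusted totals, and scores are mean log2 CPM with a prior count of 2. Levels per kb use merged exon length. The biological coefficient of variation was 9.57%, and 1 count is the unit of precision: the members' smallest library counts ran from 19 (Cntn5) to 5635 (Cntn2). The fit was tested on simulated counts. Alternatives were library totals, RLE factors, DESeq2 1.42.0, limma-voom 3.58.1 with quality weights, other filters, a replicate block, 2 marker scores as covariates, and fits without each library. Figures used matplotlib 3.10.9.

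Named genes were the 10 members, Prdm12, in each partner list the called genes or else the 3 smallest p, and in each family the member with the largest fold change, with its 3 most similar genes. L1cam, Nrcam, Nfasc, Chl1, Epb41l3, Cask and the marker genes were named after their values were seen. The members and lists were chosen with earlier results of these data known.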

Additional observations from a re-analysis of the deposited data

Results flagged for a closer look

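Values of single libraries far from the other 3 of their group were found in 3 of 20 groups of 4 tested, where chance gives about 1 in 20. Cntn1 stood at 14.35 CPM in WT replicate 1, whereas WT replicates 2 to 4 had 22.7 to 24.3 CPM. Cadm3 stood at 96.3 CPM in WT replicate 1, whereas WT replicates 2 to 4 had 134 to 141 CPM. Cntn2 stood at 296 CPM in KO replicate 1, against 246 to 252 CPM in the other KO libraries, and still below every WT library.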

How the results depend on the processing

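Cntn2 and Cadm1 kept their direction in all 17 alternatives and their call in 11 each. DESeq2, limma-voom, library totals, RLE factors and both filters kept both calls. Members called lower numbered 1 with the replicate block (Cadm1 adjusted p = 0.0590), 0 with the muscle and mesenchyme score, and 0 to 3 without 1 library. The muscle and mesenchyme score separates the groups by itself. The calls lost with it, and the smaller log2 fold changes of −0.27 for Cntn2 and −0.22 for Cadm1, are therefore not read either way. The pan-neuronal score, which overlaps between groups through WT replicate 1 alone, gave 2 members higher. The members' median log2 fold change was −0.17 with limma-voom, −0.23 with the muscle and mesenchyme score and 0.11 with the pan-neuronal score. No other member's call changed under the block. The replicate numbers share nothing in the labels, and deviations of same-numbered libraries from their group means correlated at −0.108, 0.282, −0.187 and −0.00668, so not every library correlated best with its own number and the libraries were not treated as paired.

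Over all genes, lower and higher calls numbered 39 and 9, against 81 and 22 with DESeq2, 103 and 22 with limma-voom, 14 and 2 with the replicate block, 1 and 0 with the muscle and mesenchyme score, and 340 and 478 with the pan-neuronal score. With no filter there were 58 and 13. Without 1 library the lower calls ranged from 12 to 112 and the higher calls from 3 to 21, the most without WT replicate 1. Contactin partners called lower numbered 1 with limma-voom and 0 to 1 without 1 library. Cadm partners called lower numbered 2 with the pan-neuronal score (Nectin3 and Nectin4) and 0 to 1 without 1 library.

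The sign of members that did not pass turned in some fits. With limma-voom Cntn6 was −0.12 and Cadm2 −0.012. With the muscle and mesenchyme score Cntn4 was −0.22 and Cntn6 −0.26. With the pan-neuronal score Cntn1 was 0.0060, Cadm3 0.17 and Cadm4 0.052. Without a change of sign, limma-voom moved Cadm3 to −0.22, Cadm4 to −0.12 and Cntn4 to 0.084. Without 1 library Cntn6 ranged from −0.10 to 0.27 and Cadm2 from −0.083 to 0.13. The cause of these changes was not tested.

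With the longest transcript as length, 7 rather than 5 neighbours were separated in every library, Cntn2 made up 86.1% of the contactin level in KO, and Cadm4 made up 50.4% of the Cadm level in KO and 47.9% in WT. Counts limit Cntn5 most, where the smallest count of 19 has a counting error of 22.9%.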

Other observations

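The 4 WT libraries agreed more closely in Cadm1 than counting error alone would give on average. Their coefficient of variation was 0.808%, against a counting error of 1.43% for the smallest WT count of 4919, and in KO it was 3.94%. The other abundant members varied more between WT libraries, by 4.69% in Cntn2, 7.97% in Cadm4 and 16.6% in Cadm3.

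The 3 shortest genes were among the 4 most abundant. The 4 genes with the highest level per kb had spans of 22.5 kb (Cadm4), 33.8 kb (Cntn2), 34.4 kb (Cadm3) and 327.5 kb (Cadm1), whereas the genes with the lowest levels, Cntn5 and Cntn4, spanned 1244 kb and 1022 kb, and Cadm2 spanned 966 kb. These values are a description of 10 genes, chosen after they were seen.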
